A study of Mus musculus with 6 samples.

Results

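The insulin-like growth factor (IGF) system was followed through 10 genes: the ligands Igf1 and Igf2, the receptors Igf1r and Igf2r, and the binding proteins Igfbp2, Igfbp3, Igfbp4, Igfbp5, Igfbp6 and Igfbp7. They were taken by gene symbol from a table of 23361 genes, in which each symbol occurred once. The members were chosen with earlier results of these data known. RNA had been sequenced from cells sorted on the surface proteoglycan Sdc4 from collagenase-digested hindlimb muscle of mice aged 4 months, as a source of primary satellite cells, the stem cells of muscle. There were 3 wild-type samples and 3 AUF1-null samples, in mice of a mixed C57BL/6 and 129 background, per the submitters; no source used here says how the null allele was made or whether each sample was a separate mouse. AUF1, encoded by Hnrnpd, binds AU-rich stretches in the 3' UTRs of messenger RNAs. The deposited table holds 1 value per gene for each of its conditions, q1 and q2, already pooled over samples, so no value per sample, SD or depth stands beside a gene. Neither the table nor the labels tie q1 or q2 to a genotype. The deposited file's name lists wild type ahead of knockout, but nothing states that q1 and q2 follow that order, and every comparison is therefore q2 against q1.

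IGF1 and IGF2 act through IGF1R, a receptor tyrosine kinase that signals through IRS adaptors, PI3-kinase, AKT and mTOR to promote growth and survival. IGF2R has no kinase; it carries IGF2 to the lysosome and also serves as the cation-independent mannose-6-phosphate receptor. The binding proteins hold IGFs outside the cell, prolonging their life and limiting or delivering them to the receptor, and proteases release the ligand again. In muscle, IGF1 supports satellite cell proliferation and fibre growth, and IGF2 is made by differentiating myoblasts.

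The system was transcribed mainly as binding proteins, and the receptors were its least abundant tested members. On the FPKM scale (fragments scaled to transcript length and library size, so that levels can be compared between genes), the order was Igfbp7, Igfbp6, Igfbp5, Igfbp4, Igfbp3, Igf2, Igf1, Igf2r, Igf1r and Igfbp2, and it was the same in q1 and in q2. The table carries no spread, so whether neighbours in this order differ cannot be said. Some neighbours were almost level: Igfbp6 and Igfbp5 at 120.4 and 120.3 FPKM in q1, and Igfbp3 and Igf2 at 43.3 and 42.3 FPKM there. Igfbp7 lay above 95.5% of the 14858 genes the authors tested by its mean level, Igf1 above 77.8% and Igf1r above 49.6%.

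**Figure D1:**
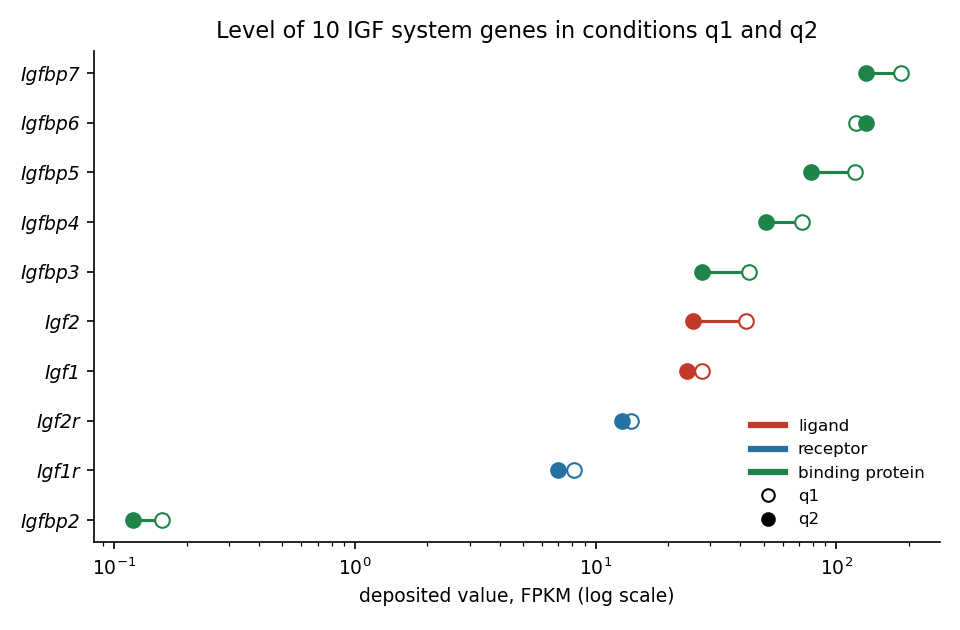
Deposited level of each gene in FPKM on a log axis, in condition q1 (open circles) and q2 (filled circles), coloured by role; each circle is 1 pooled value without error. The binding proteins other than Igfbp2 hold the highest values, and the filled circle lies left of the open one for every gene except Igfbp6.

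No member passed the authors' test between conditions (Cuffdiff q below 0.05 in the authors' deposited table: 0 of 9 tested members; 0.612% of all tested genes were called). By the unadjusted Cuffdiff p below 0.05 the count was also 0 of 9, where 5.99% of all tested genes lay below that level. The values of 8 of the 9 tested members were lower in q2, against 51.3% of all tested genes. Their median log2 difference was -0.48, against -0.01 over the 14779 tested genes with both values above 0. Because the samples are bulk RNA, fewer cells of a type and less RNA per cell cannot be told apart. Since nothing says that the samples of a group were separate mice, the authors' p-values may reflect technical spread only. A missing call does not show that a gene was the same in both conditions, since the table gives no interval for the difference.

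AU-rich sequence is the feature through which AUF1 meets its messages, so the 3' UTRs of the 10 genes were read from GENCODE vM21 transcripts (GRCm38), taking for each gene the transcript whose 3' UTR is longest. All 10 genes and 87.9% of tested genes had one. The search covered the transcript's own strand for the pentamer ATTTA and for an 8-base form, TATTTA with an A or T on each side, which always holds the pentamer. The 8-base form occurred at 5 places in 4 of the 10 genes, Igf1, Igf1r, Igfbp4 and Igfbp5. Of the tested genes with a 3' UTR, 32.3% had at least 1. Clusters of pentamers were not searched for. Each place of the 8-base form is shown with the bases around it, 5' to 3' on the transcript strand, with the match in capitals.
Igf1: ttgcagttTTATTTAActtctgca
Igf1r (the first): ttggattaTTATTTAAatgaatat
Igf1r (the second): gggtggaaATATTTAAattaggag
Igfbp4: ttaaaaaaATATTTATtatatgta
Igfbp5: caaagcatTTATTTAAtaaaagtg

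The Igf1 site lies in the 3' UTR at chr10:87932365-87932388 on the plus strand. The Igf1r sites lie in its 3' UTR at chr7:68228326-68228349 and chr7:68228768-68228791, also on the plus strand. The Igfbp4 site is at chr11:99054089-99054112 on the plus strand, and the Igfbp5 site at chr1:72857945-72857968 on the minus strand. The letters TTATTTAA occurred in 3 of the 5 sites, once each in Igf1, Igf1r and Igfbp5. In Igfbp5 the match ended 21 bases before the annotated end of the UTR and overlapped the letters AATAAA, those of the canonical polyadenylation signal. The Igfbp4 and Igfbp5 sites belong to GENCODE ends that reach beyond the span the authors' table gives for these genes, so whether the counted messages held them is not known from the files. A match of letters is a description and not evidence of binding.

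The 3' UTRs differed widely in length and in pentamers. Igf1r had the longest, 7267 bases with 13 pentamers, and Igf1 had 6308 bases with 18 pentamers. Their lengths exceeded those of 98.9% and 98.1% of tested genes with a 3' UTR. Igfbp5 had 4445 bases with 7 pentamers, Igf2 had 3050 bases with 1, and Igfbp4 had 2813 bases with 4. Part of the Igfbp4 UTR lies beyond the span the authors list for this gene, since the UTR ends at chr11:99054392 and that span at 99052643. Igfbp3 had 1435 bases with 4 pentamers and Igf2r 1304 bases with 3. The shortest were those of Igfbp2 (312 bases, 1 pentamer), Igfbp7 (240 bases, 2 pentamers) and Igfbp6 (209 bases, none). Over the tested genes with a 3' UTR, the median was 1136 bases with 2 pentamers. At least 1 pentamer was found in 69.3% of them, against 9 of the 10 members. The members' UTRs were longer, with a median of 2124 bases, which leaves more room for a pentamer. Per kb, the median was 2.04 pentamers for members and 1.29 for those tested genes. Igfbp7 was the densest member at 8.33 per kb, above 98.6% of those genes. Igf1, at 2.85, lay above 78.6%, Igf1r, at 1.79, above 60.9% and Igf2, at 0.33, above 31.3%.

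**Figure D2:**
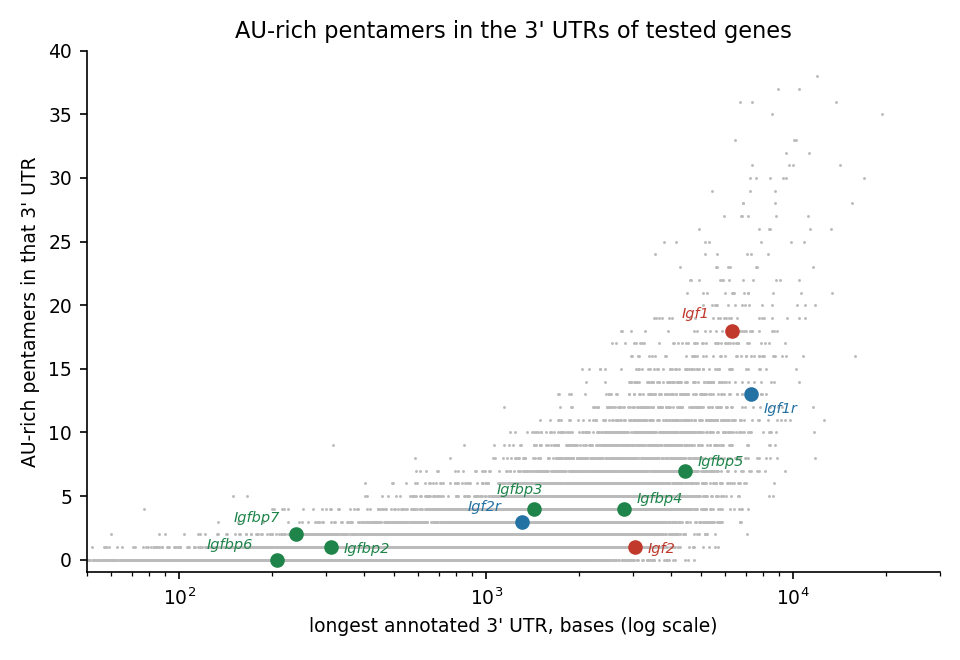
The vertical axis gives the number of AU-rich pentamers and the log axis the length in bases of the longest annotated 3' UTR. Tested genes with such a UTR are grey, of which 112 lie outside the frame. The 10 members are coloured by role as in the plot of levels. Igf1 and Igf1r lie at the long end with 18 and 13 pentamers, and Igfbp6, Igfbp7 and Igfbp2 at the short end with at most 2.

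Among the ligands, Igf2 showed the larger difference. Igf2, a fetal growth factor also used in muscle regeneration, was listed at 42.3 FPKM in q1 and 25.5 in q2, a log2 difference of -0.73 that missed the test (Cuffdiff in the authors' deposited table, p = 0.05615 and q = 0.869). Only 8.13% of tested genes had a log2 difference as low or lower. Igf1, the main growth factor induced by growth hormone, was listed at 27.7 and 24.0 FPKM, a log2 difference of -0.20 (Cuffdiff in the authors' deposited table, p = 0.627 and q = 0.999). Igf2 was thus 1.53 times the level of Igf1 in q1 and 1.06 times in q2, a ratio for which no test is available. In RefSeq (GRCm38), Igf1 lies at chr10:87858265-87937047 and Igf2 at chr7:142650768-142666816.

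H19, the imprinted noncoding RNA next to Igf2, was the one gene of the wider pathway that passed the test. H19 rose from 3.71 FPKM in q1 to 13.9 in q2, 3.73-fold or 1.90 on the log2 scale (Cuffdiff in the authors' deposited table, p = 0.00015 and q = 0.0275). As textbook background, H19 is transcribed from the maternal and Igf2 from the paternal chromosome, under a shared control region and shared enhancers. H19, at chr7:142575530-142578146, lies 72.6 kb from Igf2. The level of Igf2 was 11.4 times that of H19 in q1 and 1.84 times in q2. Whether the difference of H19 differs from that of Igf2 was not tested, since the table gives no error for either. Ins2, 11.8 kb on the other side of Igf2, was at 0.10 and 0.44 FPKM and was not tested by the authors. Mir483, nested in Igf2, was listed at 37.2 FPKM in q1 and at 0 in q2 without a test by the authors; it is far shorter than an mRNA, and reads of the host gene and of the miRNA gene cannot be told apart here.

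Both receptors had differences smaller than the members' median. Igf1r, the signalling receptor, was at 8.16 and 6.98 FPKM, a log2 difference of -0.23 (Cuffdiff in the authors' deposited table, p = 0.51 and q = 0.999). Igf2r, the clearing receptor, was at 14.1 and 12.9 FPKM, a log2 difference of -0.12 (Cuffdiff in the authors' deposited table, p = 0.734 and q = 0.999). Igf2r was 1.72 times the level of Igf1r in q1 and 1.85 times in q2. Airn, an antisense RNA that overlaps the start of Igf2r and silences its paternal copy, was at 8.41 and 10.8 FPKM (Cuffdiff q = 0.999 in the authors' deposited table; Airn was picked out after its values were seen). No source used here gives the strand setting of the counting, so reads of Igf2r and Airn cannot be told apart where they overlap. Igf1r lies at chr7:67952257-68233668 and Igf2r at chr17:12682406-12769706 (RefSeq, GRCm38).

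The insulin receptor, the closest relative of Igf1r and its partner in hybrid receptors, was at a value 2.82-fold lower in q2. Insr was listed at 7.59 FPKM in q1 and 2.69 in q2, a log2 difference of -1.50 that did not pass at 0.05 (Cuffdiff in the authors' deposited table, p = 0.00045 and q = 0.0669). It would pass at a q below 0.1, a level reached by 0.74% of all tested genes. Igf1r and Insr stood at 1.08 to 1 in q1 and at 2.60 to 1 in q2. Insrr, the other member of the receptor family, was at 0.05 and 0.19 FPKM and was not tested by the authors.

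The binding proteins held the largest share of IGF system transcripts. Of the 5 tested, 4 had lower values in q2, against 51.3% of all tested genes. Igfbp3, the main carrier of IGF in blood, was at 43.3 and 27.8 FPKM, a log2 difference of -0.64 (Cuffdiff in the authors' deposited table, p = 0.081 and q = 0.986). Igfbp5, a carrier that binds matrix and is made by differentiating myoblasts, was at 120.3 and 78.6 FPKM, a log2 difference of -0.61 (Cuffdiff in the authors' deposited table, p = 0.105 and q = 0.999). These 2 stood near Igf2 in size: 10.3% and 11.0% of tested genes had log2 differences as low or lower.

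Igfbp4, a carrier cut by the protease PAPPA, was at 71.8 and 51.1 FPKM, a log2 difference of -0.49 (Cuffdiff in the authors' deposited table, p = 0.183 and q = 0.999). Igfbp7, a secreted protein of vessel walls that binds IGFs weakly, was at 187 and 134 FPKM, a log2 difference of -0.48 (Cuffdiff in the authors' deposited table, p = 0.405 and q = 0.999). Igfbp6, a carrier that prefers IGF2, had the one higher value in q2, 133 against 120.4 FPKM, a log2 difference of 0.15 (Cuffdiff in the authors' deposited table, p = 0.67 and q = 0.999). Igfbp2 was close to absent, at 0.16 and 0.12 FPKM, and was not tested by the authors.

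Summed over the 6 genes, binding protein transcripts stood at 542 FPKM in q1 and 424 in q2, and the ligands at 70.0 and 49.5. The ratio of the sums was 7.75 in q1 and 8.57 in q2. Within the binding protein sum, the share of Igfbp6 was 22.2% in q1 and 31.4% in q2, and that of Igfbp5 was 22.2% and 18.5%. Igfbp7 made up 34.4% and 31.5%. These shares are of pooled values and carry no error.

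Some binding protein genes are neighbours with unlike levels. Igfbp2, at chr1:72824480-72852474, and Igfbp5, at chr1:72858065-72874865, are 5.59 kb apart, yet the level of Igfbp5 was 759 times that of Igfbp2 in q1 and 657 times in q2. Igfbp1, at 0.18 and 0 FPKM and not tested by the authors, lies 3.54 kb from Igfbp3 at chr11:7206086-7215498. Igfbp4 is at chr11:99040005-99052655, Igfbp6 at chr15:102144186-102149512 and Igfbp7 at chr5:77349240-77408045 (all RefSeq, GRCm38). The end of Igfbp7 overlaps that of Polr2b on the opposite strand, and the authors' table gives both genes 1 shared span.

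**Figure D3:**
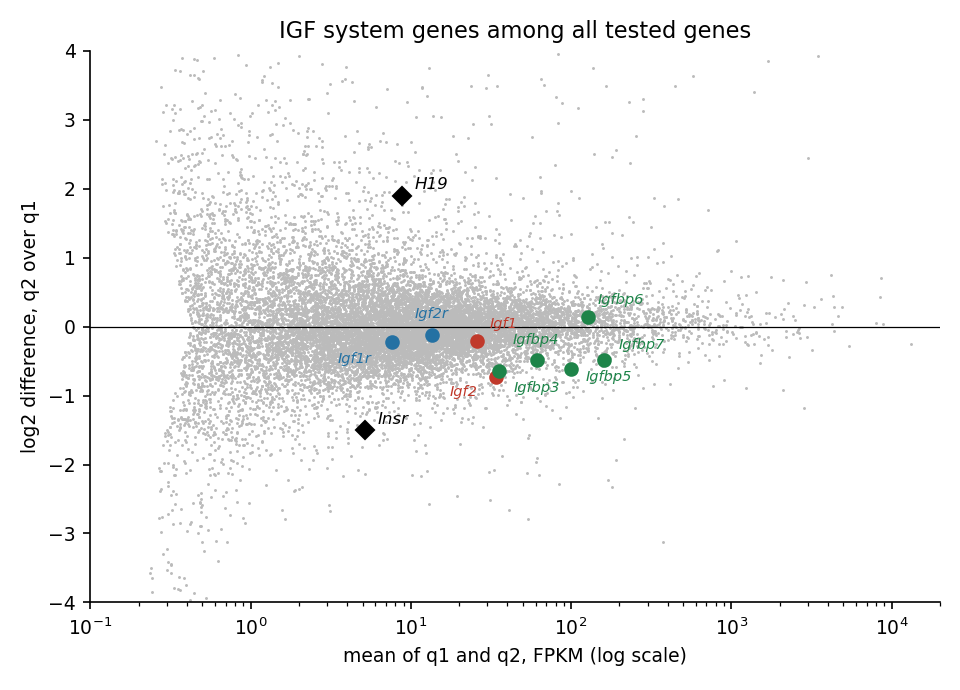
Log2 difference (q2 over q1) against mean level in FPKM (log axis). Tested genes with both values above 0 are grey, of which 53 lie outside the frame. The 9 tested members are coloured by role, and H19 and Insr are black diamonds. The members lie between -0.73 and 0.15, with H19 at 1.90 and Insr at -1.50 outside that range.

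The rest of the pathway was read from 7 lists with 63 further genes, 52 of them tested. H19 was the 1 gene called, where 0.498% of all tested genes were called higher and 0.114% lower. At an unadjusted Cuffdiff p below 0.05, 2 of the 52 were higher and 3 lower, against 3.72% and 2.27% of all tested genes. Their median log2 difference was -0.15, with 35 values below 0 and 17 above, where 51.3% of all tested genes had a lower value in q2.

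Growth hormone acts through its receptor Ghr, JAK2 and STAT5 to induce Igf1 and the feedback inhibitor Socs2. Of the 7 tested genes on the list of this axis and the Igf2 locus, H19 alone was called, and 4 of the 7 values were lower in q2. Jak2 was at 16.3 and 9.0 FPKM (Cuffdiff in the authors' deposited table, p = 0.0217 and q = 0.624) and Socs2 at 58.5 and 37.2 (Cuffdiff in the authors' deposited table, p = 0.07365 and q = 0.955). Cish, also on this list, was at 30.0 and 34.6 FPKM (Cuffdiff in the authors' deposited table, p = 0.552 and q = 0.999). Ghr was at 16.6 and 14.9 FPKM, Stat5a at 9.51 and 8.56 and Stat5b at 9.78 and 13.2, so the axis held values on both sides. Apart from H19, the genes of this axis are named here after their values were seen.

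Downstream of IGF1R, none of 28 tested genes was called, with 20 values lower and 8 higher in q2 and a median log2 difference of -0.21. Over all tested genes, 51.3% had a lower value in q2. Foxo1, a transcription factor that AKT keeps out of the nucleus, was at 22.7 and 13.0 FPKM (Cuffdiff in the authors' deposited table, p = 0.0304 and q = 0.725). Pik3r2, a regulatory subunit of PI3-kinase, was at 3.97 and 7.49 FPKM (Cuffdiff in the authors' deposited table, p = 0.03985 and q = 0.775); it was named after its values were seen. The most abundant genes of the chain were Rheb, the GTPase that activates mTOR, at 67.4 and 76.9 FPKM, and Eif4ebp1, a translation inhibitor that mTOR phosphorylates, at 50.8 and 41.5. By the unadjusted Cuffdiff p below 0.05, 1 of the 28 was higher and 1 lower, against 3.72% and 2.27% of all tested genes.

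Genes for proteins that cut the carriers, or that inhibit those proteases, had values on both sides, 4 of the 6 tested higher and 2 lower in q2. None of the 6 was called, or had an unadjusted Cuffdiff p below 0.05 (median log2 difference 0.12, or 0.03 over the 5 with at least 1 FPKM in both conditions). Adamts1 was at 296 and 303 FPKM and the serine protease gene Htra3 at 17.2 and 22.3. Stc2, an inhibitor of PAPPA, was low at 0.79 and 1.56 FPKM (Cuffdiff in the authors' deposited table, p = 0.194 and q = 0.999). Pappa itself, named after its values were seen, was at 0.33 and 0.23 FPKM and was not tested by the authors. Among 8 other proteins with an IGFBP domain, none was called or had an unadjusted Cuffdiff p below 0.05, and the median log2 difference was -0.13. The matricellular genes Cyr61 and Ctgf were at 452 and 448 FPKM and at 32.0 and 39.7 FPKM. Crim1, a transmembrane protein with such a domain, was at 20.7 and 14.5 (Cuffdiff in the authors' deposited table, p = 0.159 and q = 0.999).

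The other IGF carriers were at or near 0: Igfals was listed at 0 in both conditions, and Igfbp1 and Igfbpl1 were at most 0.18 FPKM, none of the 3 tested by the authors. Of the genes for proteins that bind Igf2 mRNA, Igf2bp2 was at 1.06 and 0.93 FPKM, while Igf2bp1 and Igf2bp3 were not tested by the authors. Hnrnpd, which encodes AUF1, was at 7.50 and 5.59 FPKM, a log2 difference of -0.42 (Cuffdiff in the authors' deposited table, p = 0.291 and q = 0.999), and therefore does not identify the AUF1-null condition.

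**Figure D4:**
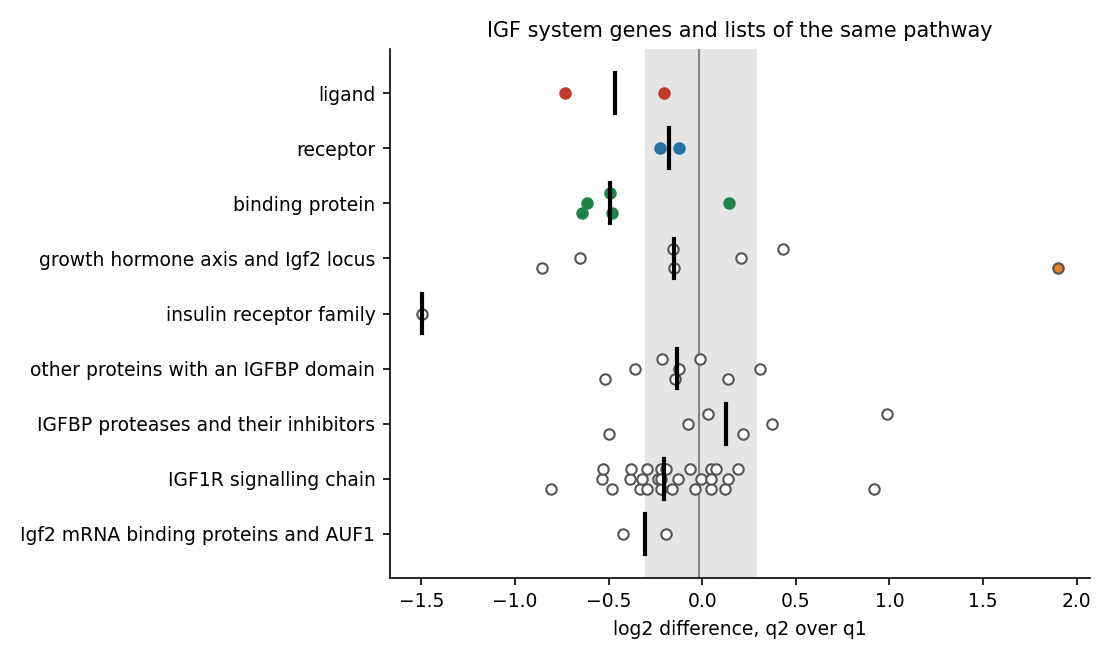
Log2 difference (q2 over q1) of each tested gene, by role for the members (filled) and by list for the other genes (open; orange where called); black bars are list medians, and the grey band spans the range between the quartiles of all tested genes around their median. H19, at 1.90, is the one called gene. The bars of the binding proteins, at -0.49, the ligands, at -0.47, and the insulin receptor family, at -1.50 (1 tested gene), lie left of the band.

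IGF system genes are transcribed by several cell types of muscle, and the sorted cells held markers of more than satellite cells. Satellite cell markers had a median log2 difference of -0.01 (6 of 12 lower in q2, 0 called) and summed to 366 FPKM in q1 and 431 in q2. Sdc4, the sorting marker, made up much of that at 173 and 270 FPKM and rose by more than the sum did. Vcam1 was at 90.8 and 65.1 and Cxcr4 at 9.78 and 18.8. Pax7, which defines these cells, was among the lowest of the list, at 1.16 and 0.85. Myf5 was at 16.7 and 17.8, Chodl at 32.1 and 21.7 and Itga7 at 31.8 and 26.3, all named after their values were seen. Endothelial markers were lower in q2 in 10 of 10 genes (median -0.27, 0 called; sums of 3043 and 2593 FPKM). Egfl7 was at 911 and 822 FPKM, Esam at 663 and 602 and Vwf at 66.5 and 31.3.

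Markers of connective tissue and mural cells are read against the 51.3% of all tested genes with a lower value in q2. Fibro-adipogenic progenitor markers were lower in 8 of 10 genes (median -0.24, 0 called; sums of 7054 and 6022 FPKM), with Gsn at 3583 and 2822, Dcn at 1259 and 1407 and Col1a2 at 211 and 103. Tendon cell markers were lower in 6 of 6 (median -0.77, 0 called, sums of 369.7 and 268 FPKM). Fmod was at 203 and 175, Thbs4 at 94.8 and 51.3 and Comp at 31.2 and 15.7. Scx, named after its values were seen, had the lowest log2 difference of these, -2.73, at only 1.28 and 0.19 FPKM. Pericyte and smooth muscle markers were lower in 6 of 10 (median -0.20, 0 called, sums of 3683 and 4747 FPKM). Rgs5, at 2279 and 3553, made up much of those sums and rose by more than the sum did. Tagln was at 544 and 405 and Cspg4 at 9.49 and 7.10.

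Macrophage markers, of which 10 of 11 symbols were found, were lower in 4 of 10 (median 0.18, 0 called, sums of 1387 and 2415 FPKM). Lyz2, at 633 and 1504, made up much of those sums, and C1qb was at 319 and 468. The 4 lower ones, named after their values were seen, were Csf1r (83.8 and 49.7), Cd163 (23.1 and 13.1), Emr1 (26.3 and 23.5) and Mrc1 (39.3 and 38.7). Neutrophil markers were the exception in size: 9 of 10 rose in q2 by the Cuffdiff q in the authors' deposited table, with a median log2 difference of 3.56 and sums of 1189 and 15473 FPKM; the one not called, Elane, was at 18.9 and 255 FPKM. By the unadjusted Cuffdiff p below 0.05, which 3.72% of all tested genes met with a higher and 2.27% with a lower value in q2, the higher ones were 1 satellite cell marker (Cxcr4), 1 macrophage marker (Lyz2) and 9 neutrophil markers. The lower ones were 1 endothelial, 2 fibro-adipogenic, 2 tendon and 1 macrophage marker (Cd163), and there were 0 pericyte markers in either direction. No marker on these lists that was tested was at 0 in either condition. The part of cell composition in the values of the IGF genes was not tested.

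**Figure D5:**
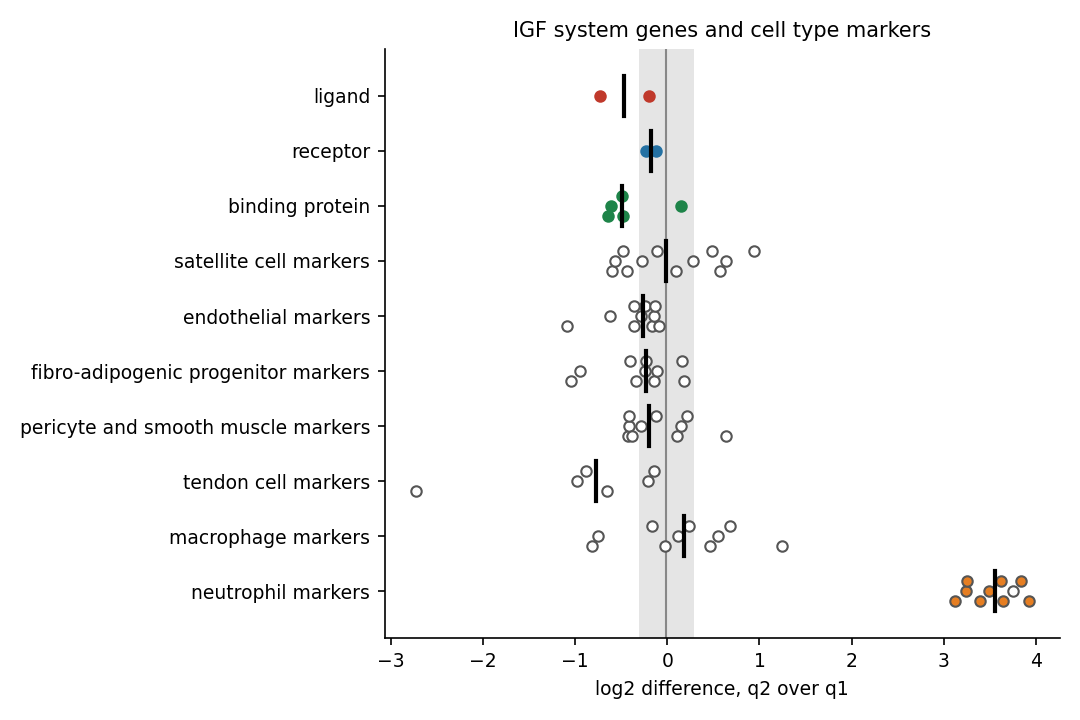
Log2 difference (q2 over q1) of the 9 tested members by role (filled) and of cell type markers (open; orange where called), with black bars for list medians and the grey band for the range between the quartiles of all tested genes. The neutrophil markers lie between 3.12 and 3.93, the binding proteins between -0.64 and 0.15, and the tendon and endothelial markers at or below -0.09.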

How the data were processed

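Per the labels' protocols, RNA was isolated with Trizol from Sdc4-sorted cells; TopHat2 2.0.9 and Cufflinks 2.2.1 are named per the submitters' processing notes. No source used here gives the annotation, library normalization or strand setting. The authors deposited 1 value per gene and condition, read here as FPKM from the Cuffdiff layout of the header, which names no unit. They also deposited the log2 fold change (q2 over q1), and a p-value and q-value per gene. The notes name mm9, but 99.9% of 13782 tested genes matched by symbol and chromosome overlapped their RefSeq GRCm38 position, so positions are given in GRCm38, 1-based. Of 23361 genes, 14858 had the status OK and count as tested; a gene was called at a deposited q below 0.05. No test between samples was possible. Adjusting the authors' p-values again by the Benjamini-Hochberg method gave their q-values; the same code, used for the alternatives, was tested on simulated data.

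Named were all members and, from each other list, the called genes or else the 2 with the highest mean and the one with the smallest p; for neutrophil markers the called genes are given as a count. The list of Schwann cell markers is not reported here. Pax7, Elane, Cd163, Mir483, the untested genes of the lists and those so marked in the text were named outside this rule, after their values were seen. Members and lists were chosen with earlier results of these data known. Ratios, sums and shares were computed with pandas 2.3.3. Alternatives covered the q threshold, low values, pseudocounts of 0.1 and 1 FPKM and scaling.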

Additional observations from a re-analysis of the deposited data

How the results depend on the processing

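No paired analysis was possible because the table pools the replicates, and for the same reason no replicate could be left out. The count of members called was 0 at a q below 0.1, after each minimum level and by the unadjusted Cuffdiff p below 0.05. A q below 0.01 tells nothing, since the smallest deposited q rounds to 0.0108. There, 0 of 14858 tested genes pass, the members and the 1 called pathway gene included. Of the 7 pathway lists, 1 gene was called (H19), which stayed so with at least 1 FPKM in both conditions (q adjusted again 0.0300). Among settings chosen after seeing the data, 2 pathway genes were called at a q below 0.1 (H19 and Insr; 0.74% of all tested genes) and 5 of 52 had an unadjusted Cuffdiff p below 0.05 (5.99% of all tested genes). The members' median log2 difference of -0.48 ranged from -0.46 to -0.60 over pseudocounts and scalings. The value of -0.60 came from scaling both conditions to the same total, which lowers every log2 difference by 0.12. Under every scaling and pseudocount, 8 of 9 tested members were below 0 and Igfbp6 above it. With equal totals, however, Igfbp6 was close to 0, at 0.03 against 0.15 as deposited. The order of levels was the same in q1, in q2 and for their mean. Depth per sample is unknown, so no interval can be set around any value.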
